A study of Mus musculus with 18 samples.

Results

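The matrix metalloproteinases (Mmp), the Adamts and Adamts-like proteins and the tissue inhibitors of metalloproteinases (Timp) were followed through mouse fibroblasts, hepatocyte-like cells and 4 kinds of intestinal organoid. Every gene whose name on the arrays begins with Mmp plus a digit, Adamts, or Timp plus a digit was taken, which gave 48 genes with 82 of the 41174 gene probes. They comprise 21 Mmp genes, 18 Adamts genes, 5 Adamts-like genes and 4 Timp genes. For each gene the probe with the highest mean signal was used.

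RNA was hybridised to 18 one-colour microarrays in 6 groups of 3, all from C57BL/6 mice. MEFs are embryonic fibroblasts, and iHep are hepatocyte-like cells derived from MEFs. Their titles carry the codes 4α1, 4α2 and 4α3, which the labels do not explain, so that the 3 iHep arrays may be different conversions. The iISC and crypt groups are budding organoids, from induced intestinal stem cells and from adult intestinal crypts, and the iFIPC and FI groups are mixed spherical and budding organoids, from induced and from native fetal intestinal progenitor cells. The series title names mouse fibroblasts as the source of the induced progenitors, but no label ties the MEFs measured here to them. MEF arrays 2 and 3 were nearly identical, with a spread (median absolute deviation) of their log2 differences of 0.073 against 0.197 to 0.536 in the other within-group pairs, and were averaged to 1 sample, so that n = 2 for MEFs and 3 elsewhere. Nothing in the labels says that arrays of a group came from separate cultures or animals, so p-values measure only the spread between these samples, which may be technical.

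Levels are log2 signals minus the 75th percentile of the array, so a level of 0 is the signal of a fairly bright probe, 1 unit is a 2-fold difference, and levels near -8 are background. A probe counts as measured where the scanner software flagged it well above background. Levels of different genes are not comparable, since each rests on its own probe. Scanner and software version set the arrays of MEF and iHep apart from those of the organoids. Of the control RNAs added to each labelling, 7 read 0.52 to 1.20 log2 units higher on the former (median 0.90). Differences of about that size between MEFs and organoids therefore cannot be told apart from the array set. On each array 56.15 to 68.68% of gene probes were well above background. All 14 fibroblast markers were well above background in MEFs, all 7 measured hepatocyte markers in every iHep sample, all 8 epithelial markers in every iHep and organoid sample, and all 9 intestinal markers in every organoid sample. Marker lists also read outside their own cell type: iHep samples held 13 to 14 of the 14 fibroblast and 4 to 6 of the 9 intestinal markers above background, Cdx2 among them at 2.31 to 3.59, and organoids held 3 to 6 of the 7 hepatocyte markers. Immune markers were present in MEFs as well, with 6 to 8 of 8 above background, among them the macrophage gene Adgre1 on all 3 arrays.

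Mmps are zinc proteases, mostly secreted as inactive precursors, that cut collagens and other matrix proteins as well as growth factors and precursors at the cell surface. Adamts proteases carry thrombospondin repeats and process procollagens and large proteoglycans, whereas the Adamts-like proteins lack the protease domain and bind fibrillin-rich matrix. Timps bind the active site of these enzymes. In the gut most of them are made by fibroblasts and other stromal cells. Mmp7, or matrilysin, is an exception: it is made in Paneth cells of the crypt and activates alpha-defensins there.

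Of the 21 Mmp genes, 8 lie in a row on chromosome 9, and their probes span 415 kb (mm9, chr9:7282762-7697700) in the order Mmp13, Mmp12, Mmp3, Mmp1a, Mmp10, Mmp8, Mmp20, Mmp7. Because neighbours in this row differed in where they were expressed, their upstream sequences are shown first. RefSeq promoters (build GRCm38.p6) were available for 33 of the 48 genes, and 250 bases before the start site were searched for the AP-1 element TGANTCA, which reads the same on both strands, and, on the coding strand, for TATAAA, the core of the TATA box. The element TGANTCA was present in 7 of the 8 cluster genes and in 0 of the 25 other genes with a promoter, against 2217 of all 32851 promoters (6.75%). TATAAA was present in 6 of the 8 cluster genes and 3 of the other 25, against 7.59% of all promoters. The 4 cluster genes that the results turn on are given 5′ to 3′, ending at the base before the start site, with TGANTCA in capitals. They lie on the plus strand, Mmp13 at chr9:7272264-7272513, Mmp3 at chr9:7445572-7445821, Mmp10 at chr9:7502092-7502341 and Mmp7 at chr9:7691840-7692089.
Mmp13: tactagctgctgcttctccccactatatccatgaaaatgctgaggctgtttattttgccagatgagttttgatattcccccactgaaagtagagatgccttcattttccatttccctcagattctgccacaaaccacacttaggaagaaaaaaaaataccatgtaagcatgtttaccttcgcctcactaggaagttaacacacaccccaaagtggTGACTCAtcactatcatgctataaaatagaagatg
Mmp3: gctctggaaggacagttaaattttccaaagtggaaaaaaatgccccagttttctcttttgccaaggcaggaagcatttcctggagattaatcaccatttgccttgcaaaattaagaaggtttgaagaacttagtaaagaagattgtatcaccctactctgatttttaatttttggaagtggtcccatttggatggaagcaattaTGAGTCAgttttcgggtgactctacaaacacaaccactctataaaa
Mmp10: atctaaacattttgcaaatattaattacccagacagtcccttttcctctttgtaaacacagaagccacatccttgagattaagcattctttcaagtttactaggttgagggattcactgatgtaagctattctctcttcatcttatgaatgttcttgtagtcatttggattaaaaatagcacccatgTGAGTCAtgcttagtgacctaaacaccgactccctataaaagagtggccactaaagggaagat
Mmp7: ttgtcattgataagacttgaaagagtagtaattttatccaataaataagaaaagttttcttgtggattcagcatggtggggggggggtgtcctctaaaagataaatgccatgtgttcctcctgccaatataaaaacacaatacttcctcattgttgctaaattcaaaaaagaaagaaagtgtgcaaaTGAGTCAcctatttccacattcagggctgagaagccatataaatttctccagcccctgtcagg
Counted from the start site, the first base of the element stood at -35 in Mmp13, -46 in Mmp3, -63 in Mmp10 and -63 in Mmp7. A match describes letters only and shows neither binding nor activity. Mmp12 and Mmp7 have 2 annotated starts each, and in both genes 1 of the 2 windows held the element.

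The row held opposite patterns. Mmp13 (a collagenase), Mmp3 (stromelysin-1) and Mmp10 (stromelysin-2) were well above background in every MEF and iHep array, while Mmp7 and Mmp20, the enamel protease, were brightest in organoids. Mmp12, the macrophage elastase, was well above background on 2 of 18 arrays, MEF 2 and 3 at -4.34 and -4.51. Mmp1a, a collagenase, was measured on 1 array, iHep 1 at -3.07, where the other iHep arrays stood at -8.12 and -8.16. Mmp8, the neutrophil collagenase, was measured on 3 arrays, 1 each of MEF, iHep and crypt, at levels of -5.98 to -5.15. Mmp20 was at background in all MEF and iHep arrays (-9.01 to -7.73) and above it in all crypt and FI samples. Its levels were -5.62, -4.64 and -4.97 in crypt, -4.37, -4.18 and -4.31 in FI, -4.72, -7.07 and -6.07 in iISC, and -4.08, -6.31 and -4.54 in iFIPC, with 1 iISC and 2 iFIPC arrays well above background. FI organoids were at least 3.92-fold above MEFs (adjusted p = 0.000148) and crypt organoids at least 2.27-fold (adjusted p = 0.000749), both near the lower end of what these arrays can measure, and with another background correction (normexp) neither was called.

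**Figure D1:**
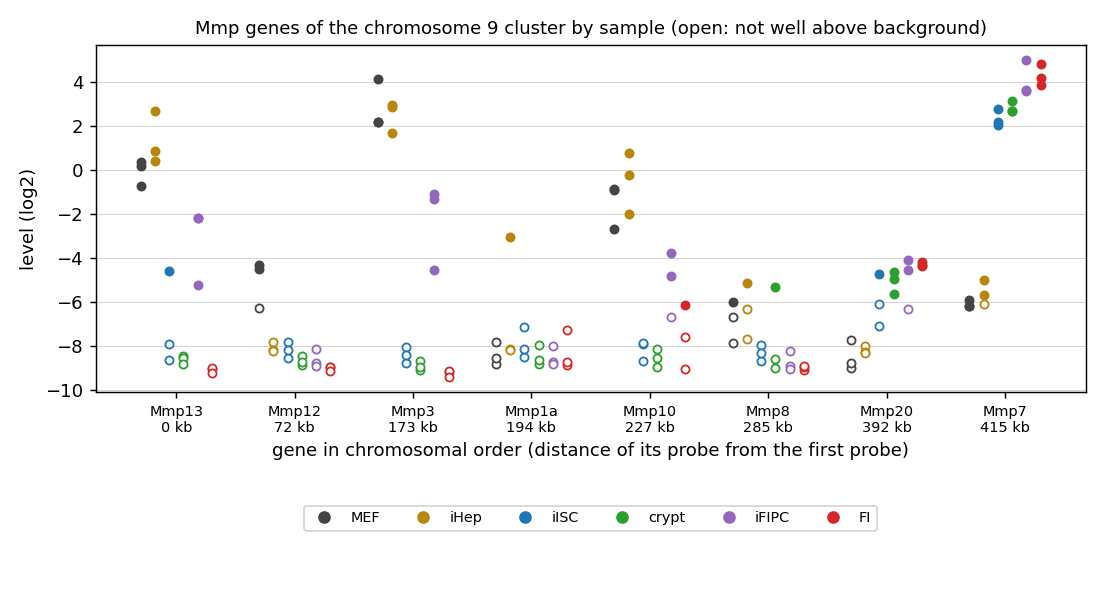
Levels (log2 signal minus the array's 75th percentile) of the 8 Mmp genes of the chromosome 9 row, in chromosomal order with the distance of each probe from the first in kb, 1 point per array, coloured by group, open where the probe was not well above background. Mmp13, Mmp3 and Mmp10 are high in MEF and iHep arrays, and Mmp7 is between 2.02 and 4.96 in all organoid arrays.

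Of the 48 genes, 38 were well above background on all arrays of at least 1 group, and 14 of these on all 18 arrays: Mmp11, Mmp14, Mmp15, Mmp17, Mmp23, Mmp28, Adamts14, Adamts15, Adamtsl4, Adamtsl5 and Timp1 to Timp4. The 10 genes without such a group were Mmp1a, Mmp8, Mmp9, Mmp12, Mmp21, Mmp25, Adamts8, Adamts13, Adamts18 and Adamts19. Mmp21, Adamts13 and Adamts19 were above background on no array. MEFs had 35 of the 48 genes above background on all 3 arrays, iHep 27, iFIPC 19, FI 18, crypt 17 and iISC 15. Mmp9, the gelatinase of leukocytes, was measured on MEF 2 and 3 alone (-3.37 and -3.40), the same arrays as Mmp12. Adamts8 was measured on 4 arrays: it reached -1.20 on iHep 1, the array that also held Mmp1a, and stood at -8.01 and -8.04 on iHep 2 and 3, -4.54 and -4.84 on MEF 2 and 3, and -4.97 on iISC 3. The tests below exclude these 10 genes and take, in each comparison, the genes well above background throughout at least 1 of the groups compared. A gene was called when its adjusted p over all genes tested was under 0.05 and its log2 change at least 1.

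**Figure D2:**
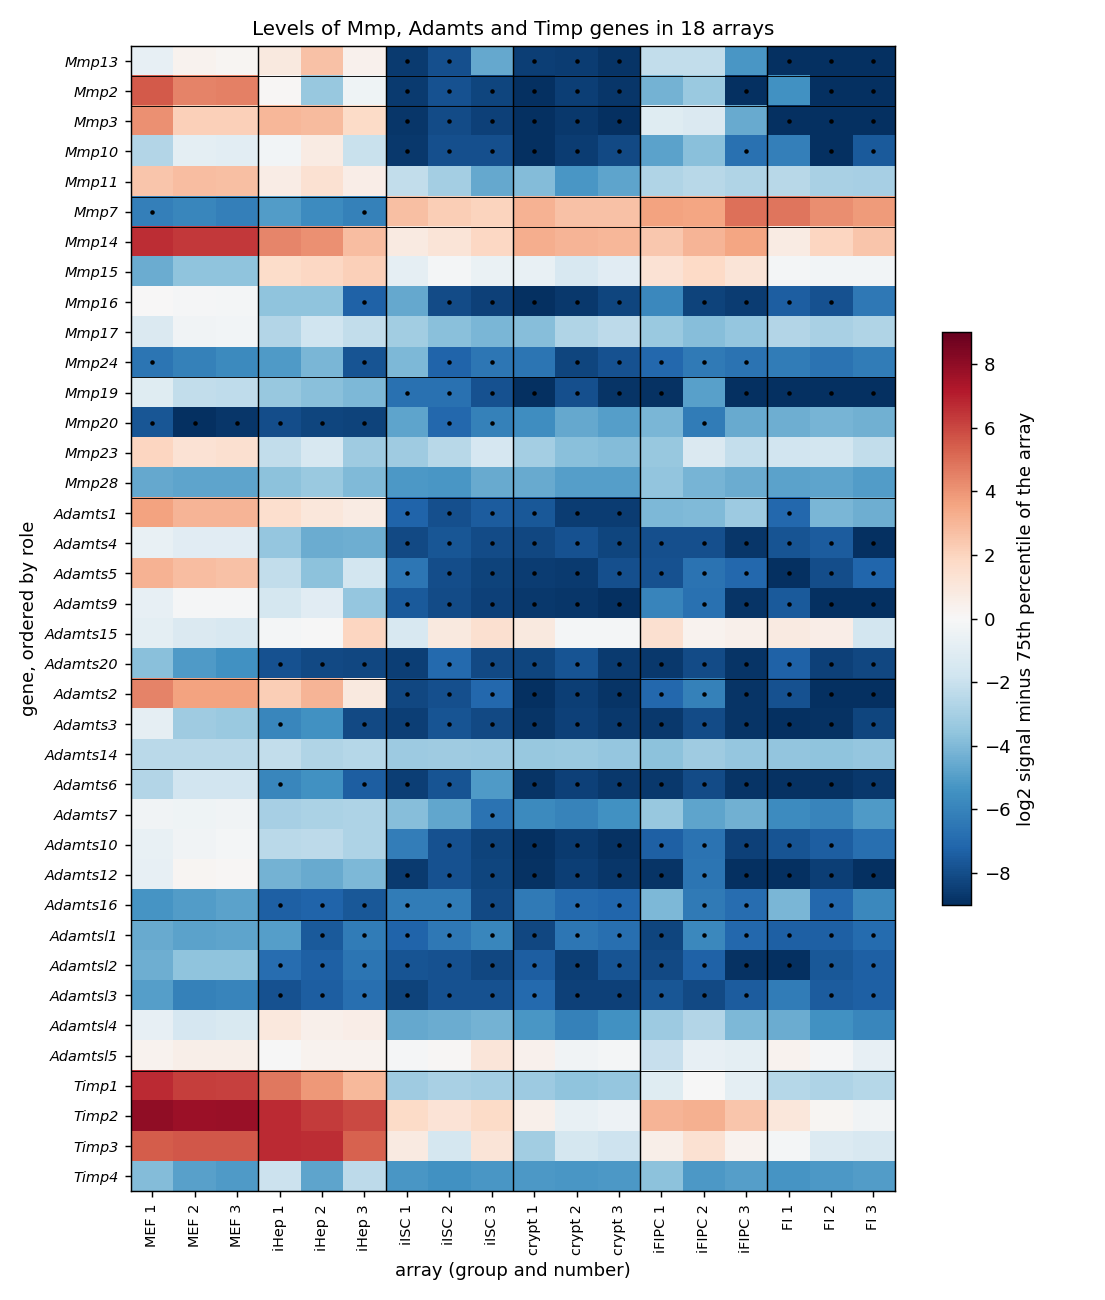
Levels (colour, log2 signal minus the array's 75th percentile) of the 38 measurable genes (rows, in role classes set apart by thin lines) on all 18 arrays (columns), with a dot where the probe was not well above background. The Adamts rows are dotted through most organoid columns, whereas Mmp7 is low in the MEF and iHep columns and Mmp15 lowest in the MEF columns.

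Compared with MEFs, iHep cells were lower in most of the genes tested. Of 35 genes tested, 23 were called, 3 higher and 20 lower. Over all 14401 genes tested, 27.8% were called, 11.9% higher and 15.9% lower. The median log2 change of the 35 genes was -1.98, against -0.10 over all genes tested. All 35 were well above background throughout MEFs, against 27 of the 48 genes throughout iHep, so the filter favours falls. The samples of both groups did not overlap for 29 of the 35, against 62.5% of all genes. Within the slide that carried MEF 1 and all iHep arrays, 11 of the genes were called, 1 higher and 10 lower, against 12.3% of all genes tested in that fit. The lone MEF sample is there assumed to vary like the iHep samples. Among the genes not called there were Mmp2 (-6.76), Mmp14 (-2.86), Mmp16 (-4.86), Timp1 (-2.91), Timp2 (-1.68) and Adamtsl4 (1.40), with adjusted p of 0.0721 to 0.168.

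Mmp2, the gelatinase of stromal cells (probe at chr8:95376840-95376899), had the largest fall in iHep cells. Its level was 5.54 and 4.49 in the MEF samples and 0.12, -3.40 and -0.41 in iHep, without overlap, a log2 change of -6.24 ± 1.51 (SE; adjusted p = 0.00474). Adamts5, the aggrecanase (chr16:85862677-85862736), had levels of 3.13 and 2.69 in the MEF samples, and -2.24, -3.66 and -1.62 in iHep (-5.42 ± 0.69, adjusted p = 3.93e-05). Both lost most of their fibroblast signal in all 3 iHep samples. Mmp3 (chr9:7455751-7455810) went another way: it read 4.14 and 2.15 in MEFs and 2.96, 2.85 and 1.69 in iHep, and the groups overlapped (-0.64 ± 0.84, adjusted p = 0.559). Mmp13 was -0.75 and 0.25 in MEFs and 0.87, 2.66 and 0.39 in iHep (1.55 ± 1.1, adjusted p = 0.273). Mmp10 was -2.67 and -0.92 in MEFs and -0.23, 0.76 and -2.01 in iHep (1.30 ± 0.98, adjusted p = 0.303). None of the genes tested from the chromosome 9 row of Mmps was called, and an SE near 1 leaves changes of several-fold in either direction possible.

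The membrane-type Mmps moved in opposite directions. Mmp14, which is anchored in the plasma membrane and activates pro-Mmp2, read 6.63 and 6.37 in the MEF samples, and in iHep 4.41, 4.13 and 2.78, a fall of 2.73 ± 0.54 (adjusted p = 0.0013). Mmp15, a close relative of Mmp14 (chr8:97897703-97897762), was -4.44 and -3.62 in MEFs and 1.68, 1.87 and 2.11 in iHep. It rose by 5.92 ± 0.28 (adjusted p = 4.47e-09), the largest rise among the genes, and every iHep sample lay far above both MEF samples. Mmp16 fell by 4.78 and Mmp17 by 1.45, and of the remaining Mmps Mmp23 fell by 3.94, Mmp11 by 1.74, and Mmp28 rose by 1.04. Without MEF 2 and 3, Mmp17 (-0.94) and Mmp28 (0.97) were no longer called, nor was Mmp28 without iHep 2 (0.89). Mmp11 was no longer called when either MEF sample, iHep 1 or iHep 3 was left out (-1.88 to -1.60).

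Among the Adamts genes 10 of 14 tested fell in iHep and 0 rose. The falls were largest for Adamts5, Adamts3 (-4.43), Adamts6 (-4.10) and Adamts12 (-3.99), and Adamts4, an aggrecanase too, fell by 3.29. Adamts3 and Adamts6 were well above background on iHep 2 alone among the iHep arrays, so the sizes of their falls rest partly on background. Adamts1 fell by 2.27, Adamts7 by 2.56, Adamts10 by 2.04 and Adamts2, which removes the N-propeptide of fibrillar procollagens, by 1.98. The Adamts2 call was lost when either MEF sample, iHep 1 or iHep 3 was left out, that of Adamts1 without MEF 1, and that of Adamts10 without MEF 2 and 3. The Adamts12 probe carries that name only in the annotation of the organoid arrays, and the files of the MEF and iHep arrays give it another. Adamts15 (-0.90 and -1.37 in MEFs, -0.20, -0.02 and 1.92 in iHep) and Adamts9 did not pass the test. Of the Adamts-like genes Adamtsl2 and Adamtsl3 fell, but Adamtsl3 was not called without MEF 1. With normexp background correction neither was called, since both missed the minimum change (-0.71 and -0.38, adjusted p = 0.00132 and 0.00603). The probe used gave -1.88 for Adamtsl3, and another of its probes gave -5.04. In the same class Adamtsl4 rose from -0.72 and -1.43 to 0.98, 0.45 and 0.60 (1.75 ± 0.44, adjusted p = 0.00621). Without MEF 2 and 3 the adjusted p of Adamtsl4 was 0.0765.

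Timp1 to Timp3 were bright in iHep cells as in MEFs, whereas Timp4 was dim in both (-3.89 and -5.02 in MEFs, -1.95, -4.77 and -2.33 in iHep) and was not called (1.44 ± 0.66, adjusted p = 0.0947). Timp1 (chrX:20451675-20451733) was 6.74 and 6.20 in MEFs and 4.72, 3.87 and 2.90 in iHep, a fall of 2.64 ± 0.41 (adjusted p = 0.000205). Timp2, which both inhibits Mmp2 and takes part in its activation, fell by 1.54 ± 0.41 (adjusted p = 0.00791) from 7.98 and 7.71 to 6.70, 6.30 and 5.91, and was not called without MEF 1 (-1.41, adjusted p = 0.062). Timp3, which binds the matrix and also inhibits Adamts4 and Adamts5, was 5.43 and 5.57 in MEFs and 6.73, 6.63 and 5.31 in iHep. The groups overlapped, and the difference of 0.72 ± 0.76 was not called (adjusted p = 0.464). In the same samples 10 of 14 fibroblast markers fell, with list means of 4.41 and 4.74 in MEFs and 0.26 to 1.82 in iHep, and 5 of 6 immune markers tested fell. What part fibroblasts or macrophages left in a culture had in the levels of these genes was not tested. In bulk RNA, fewer cells of a type and less RNA per cell cannot be told apart.

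All 4 kinds of organoid differed from MEFs in most of the genes. These comparisons share the MEF samples and are given side by side. In iFIPC organoids 32 of 36 genes tested were called (2 higher, 30 lower), where 43.5% of all genes tested were called (20.2% higher, 23.3% lower). In iISC organoids it was 30 of 36 (2 higher, 28 lower) against 48.5% of all genes (23.1% and 25.5%). In FI organoids it was 32 of 38 (3 higher, 29 lower) against 47.1% (23.3% and 23.8%), and in crypt organoids 31 of 37 (3 higher, 28 lower) against 50.3% (24.2% and 26.1%). The median log2 changes of the genes tested were -4.06, -5.30, -5.33 and -6.47 in iFIPC, iISC, FI and crypt organoids, against -0.03, -0.01, 0.03 and 0.02 over all genes. In each of the 4 comparisons the genes were called lower more often than the genes on the arrays as a whole, which describes the list and is no test of it. Of the 48 genes, 35 were above background throughout MEFs, against 19 throughout iFIPC, 15 iISC, 18 FI and 17 crypt. Many genes were therefore tested only because they were bright in MEFs. That filter favours falls, so the counts and medians partly reflect it. Samples did not overlap with MEFs for 34 of the genes tested in iFIPC, 33 in iISC, 33 in FI and 35 in crypt, against 79.2%, 80.7%, 80.7% and 81.0% of all genes tested. Fibroblast markers moved with these falls: all 14 were called lower in each organoid group, with list means of -6.98 to -2.68 in organoids.

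The genes called higher were Mmp7 and Mmp15 in all 4 comparisons and Mmp20 in crypt and FI. Mmp7 (chr9:7697641-7697700) read -6.16 and -6.02 in MEFs and -5.02, -5.68 and -6.10 in iHep, at the edge of detection. It was 2.74, 2.18 and 2.02 in iISC, 3.14, 2.66 and 2.65 in crypt, 3.62, 3.56 and 4.96 in iFIPC, and 4.79, 4.16 and 3.84 in FI. All 12 organoid samples lay above all MEF and iHep samples, by 8.40 ± 0.43 in iISC, 8.91 ± 0.43 in crypt, 10.14 ± 0.43 in iFIPC and 10.35 ± 0.43 in FI (adjusted p = 2.91e-09, 1.47e-09, 6.92e-10 and 4.9e-10). These sizes rest partly on MEF levels near background. The 7 measured Paneth cell markers were well above background in every organoid sample, with list means of 4.69 to 5.79, against -5.45 to -4.96 in MEFs. Mmp15 was -0.78, -0.17 and -0.60 in iISC, -0.70, -1.44 and -1.02 in crypt, 1.28, 1.76 and 1.14 in iFIPC and -0.16, -0.26 and -0.24 in FI. Every organoid sample was above both MEF samples (-4.44 and -3.62), and the rises were 3.52 ± 0.28, 2.98 ± 0.28, 5.43 ± 0.28 and 3.81 ± 0.28 in that order (adjusted p at most 7.65e-07).

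**Figure D3:**
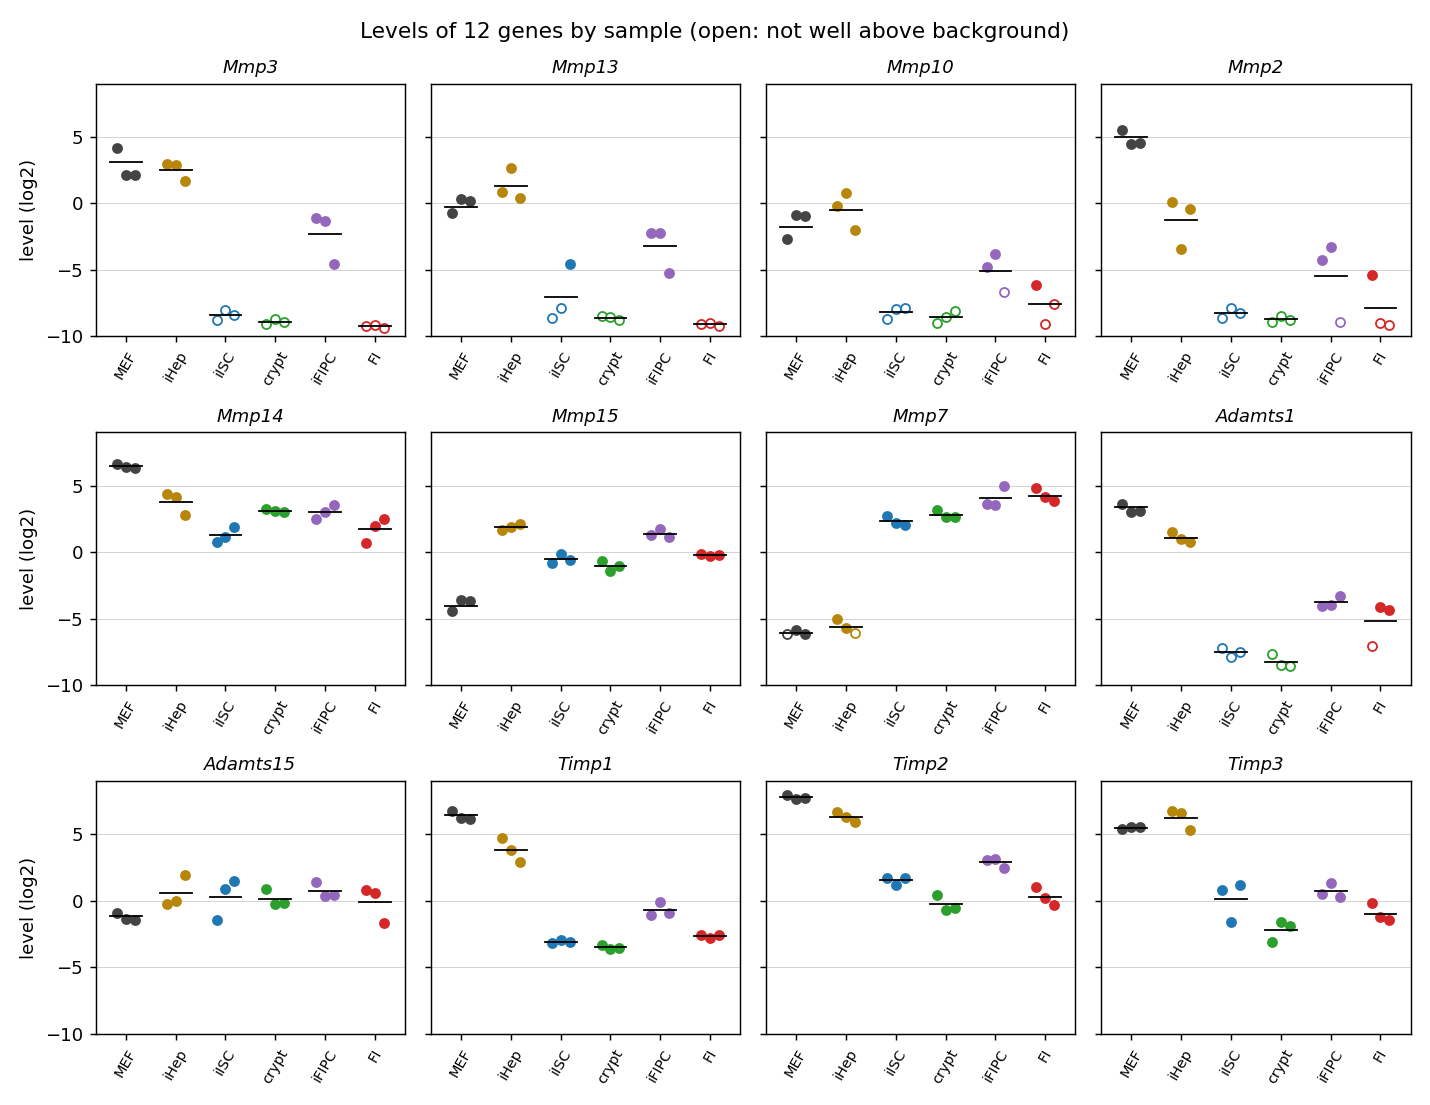
Levels (log2 signal minus the array's 75th percentile) of 12 genes in the 6 groups, 1 point per array, open where not well above background, with a line at the group mean (for MEFs over 2 samples, arrays 2 and 3 being averaged). Mmp3 and Mmp13 leave background in organoids of the iFIPC group on all 3 arrays, and Mmp7 is high in every organoid group.

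The secreted proteases of MEFs were mostly at background in crypt and iISC organoids. Mmp2 read -8.95, -8.48 and -8.75 in crypt and -8.61, -7.85 and -8.24 in iISC organoids, all at background, so that MEFs were at least 3240-fold and at least 2250-fold brighter (adjusted p = 3.28e-06 and 5.13e-06). It read -5.42, -8.98 and -9.18 in FI and -4.23, -3.31 and -8.94 in iFIPC, with FI 1 and iFIPC 1 and 2 well above background. Adamts2 (chr11:50617472-50617531), at 4.45 and 3.61 in MEFs, was at background in all 12 organoid samples, at least 1140-fold lower in iISC, 1640-fold in crypt, 1550-fold in iFIPC and 2120-fold in FI organoids (adjusted p at most 3.66e-08). Adamts5 was at background in all 12 too, at least 524-fold lower in iISC, 756-fold in crypt, 712-fold in iFIPC and 962-fold in FI. The 3 Timps bright in MEFs fell in every organoid group but stayed well above background: the log2 changes in iISC, crypt, iFIPC and FI were -9.52, -9.94, -7.15 and -9.12 for Timp1, -6.30, -8.09, -4.92 and -7.53 for Timp2, and -5.36, -7.68, -4.76 and -6.45 for Timp3. Mmp14 remained bright, at 0.71 to 3.53 in organoids against 6.63 and 6.37 in MEFs.

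Adamts14, a procollagen N-propeptidase, and Adamts15, a versican- and aggrecan-cleaving protease, were measured on every array. Adamts14 ranged from -2.70 to -2.25 over MEF and iHep samples and from -3.71 to -3.22 over organoids. Its small spread let changes of -1.02 ± 0.15 in iFIPC and -1.12 in FI be called, while -0.80 in iISC and -0.96 in crypt missed the minimum change. With quantile normalisation neither was called (-0.79 and -0.88), and the iFIPC call was lost without iFIPC 1. These sizes are near that of the control RNA difference between the array sets. Adamts15 ranged from -1.66 to 1.92 over all samples and was called in none of the comparisons with MEFs (log2 changes of 1.05 to 1.87). Adamts16, Mmp28 and Timp4 were not called in any organoid group against MEFs, and Adamtsl5 in iFIPC alone (-1.63 ± 0.44, adjusted p = 0.00579).

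Organoids of induced fetal progenitors differed from those of native fetal intestine in proteases and inhibitors at once. Of 21 genes tested, 6 were called, all higher in iFIPC: Mmp3, Mmp13, Timp2, Timp1, Adamtsl4 and Mmp15. Over all 14373 genes tested 10.8% were called, 5.70% higher and 5.07% lower. The median log2 change of the 21 genes was 0.83, against -0.08 over all genes tested, and 11 of the 21 did not overlap between the groups, against 47.0% of all genes. Mmp3, Mmp13 and Adamts1 were tested only because they were above background throughout iFIPC, and Mmp20 and Mmp24 only because they were so throughout FI. For the former the filter favours rises, so the count and median partly reflect it.

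Mmp3 read -1.1, -1.31 and -4.54 in iFIPC and -9.19, -9.15 and -9.38 in FI. The iFIPC samples were all well above background and the FI samples all at it, so that iFIPC organoids were at least 26.0-fold higher (fitted log2 change 6.92 ± 0.73, adjusted p = 0.000541). Mmp13 (chr9:7282762-7282821) read -2.21, -2.20 and -5.23 against -9.04, -9.01 and -9.22, at least 13.9-fold higher (fitted 5.87 ± 1.03, adjusted p = 0.00482). Both genes were lowest in iFIPC 3. Mmp10, not tested here because iFIPC 3 was at background, was also lowest in iFIPC 3 among the iFIPC samples, at -4.81, -3.78 and -6.70 in iFIPC and -6.15, -9.05 and -7.58 in FI, where FI 1 alone was well above background. Mmp2 behaved like Mmp10, with iFIPC 1, iFIPC 2 and FI 1 measured. Mmp3 and Mmp13 lie at both ends of a stretch that holds Mmp12 and, beyond Mmp3, Mmp1a, and these 2 were at background on all iFIPC and FI arrays.

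Timp1 and Timp2 rose as well. Timp1 was -1.09, -0.06 and -0.89 in iFIPC and -2.58, -2.78 and -2.57 in FI, a rise of 1.97 ± 0.23 (adjusted p = 0.000861). Timp2 (chr11:118163146-118163205) was 3.09, 3.17 and 2.5 against 1.03, 0.21 and -0.30, a rise of 2.61 ± 0.39 (adjusted p = 0.00249). Timp3 was 0.52, 1.37 and 0.33 against -0.16, -1.22 and -1.46, without overlap, but did not pass (1.69 ± 0.72, adjusted p = 0.107). Mmp15 was 1.28, 1.76 and 1.14 against -0.16, -0.26 and -0.24, a rise of 1.61 ± 0.23 (adjusted p = 0.00202). Adamtsl4 was -3.28, -2.61 and -4.02 against -4.43, -5.47 and -5.86 (1.95 ± 0.42, adjusted p = 0.011). For Timp1, Timp2 and Mmp15, iFIPC 3 stood close to the other 2 samples, unlike for Mmp3 and Mmp13. Mmp14 (2.46, 3.05 and 3.53 against 0.71, 1.94 and 2.49) overlapped and was not called (1.30 ± 0.45, adjusted p = 0.059). Mmp7 overlapped too (-0.21 ± 0.39, adjusted p = 0.715).

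Some markers of fibroblasts were also higher in iFIPC organoids. Of 14 such markers, 8 to 12 were well above background in iFIPC samples and 5 to 7 in FI samples, and list means were -3.67, -2.68 and -5.45 in iFIPC and -5.37, -6.98 and -6.98 in FI. Of 8 markers tested 3 were called, all higher in iFIPC. Dcn, a collagen-binding proteoglycan, read -2.24, -1.16 and -3.65 in iFIPC and was at background in all FI samples, Twist1, a mesenchymal transcription factor, read -2.96, -2.73 and -2.23 against background, and Vim rose by 2.06 ± 0.46. Of 4 immune markers tested, Cd68 alone was called (2.20 ± 0.50). The smooth muscle list had 0 of 4 tested genes called, with a median log2 change of 0.33. Hepatocyte markers moved in the same samples: of 7 measured, 6, 6 and 3 were well above background in iFIPC and 4, 3 and 4 in FI, with list means of -3.46, -2.47 and -5.04 against -4.87, -5.48 and -5.40. Of 3 tested, Ttr was called (1.96 ± 0.53), and Alb read -4.50, -1.35 and -7.66 in iFIPC against -7.59, -7.68 and -5.65 in FI. Col1a1 was high in FI 1 as well (-1.1, against -1.17, 0.49 and -3.05 in iFIPC). Mmp3 and Mmp13 were at background in FI 1, where Col1a1, Mmp2 and Mmp10 were not. In bulk RNA a few fibroblasts and a low level in every cell look alike, and the part of fibroblasts or of hepatocyte-like cells in these results was not tested.

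**Figure D4:**
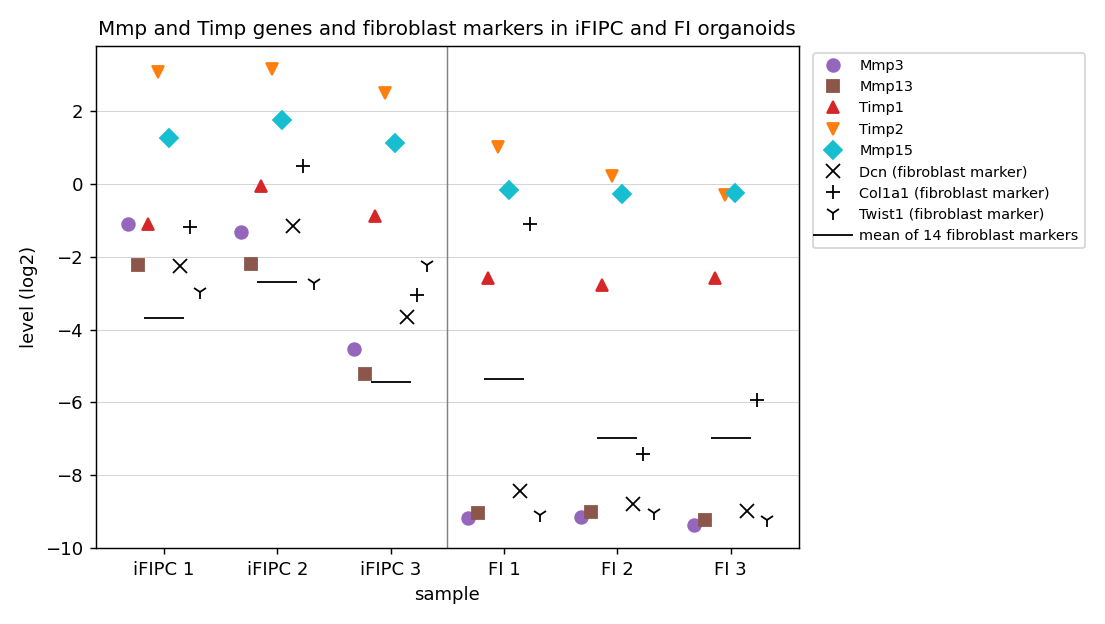
Levels (log2 signal minus the array's 75th percentile) of 5 genes and of fibroblast markers in each iFIPC and FI sample, with the mean of the 14 fibroblast markers as a bar. Mmp3, Mmp13, Dcn and Col1a1 are lowest in iFIPC 3 among the iFIPC samples, whereas the fibroblast marker Twist1 is highest there. Timp1, Timp2 and Mmp15 differ less among these samples, and FI 1 holds Col1a1 but neither Mmp3 nor Mmp13.

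No slide carried both iFIPC and FI arrays. With slide as a term in the fit, the groups are linked through crypt arrays alone. Of these only crypt 1 shared the slide of the FI arrays. The array iFIPC 2, on the slide of the iISC arrays, adds nothing to that difference. In this fit Timp1 (1.91, adjusted p = 0.01) and Mmp15 (1.96, adjusted p = 0.0491) were still called. Mmp3 (6.13, adjusted p = 0.0926), Mmp13 (5.59, adjusted p = 0.235), Timp2 (3.54, adjusted p = 0.0536) and Adamtsl4 (2.14, adjusted p = 0.202) were not. All 6 kept their direction.

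Other genes of matrix breakdown were taken from a list of 34. Of 25 tested between iFIPC and FI, 9 rose and 1 fell, against the 5.70% and 5.07% over all genes. The plasminogen activator Plau read -5.62, -5.82 and -4.71 in iFIPC and was at background in FI (at least 3.11-fold, adjusted p = 0.00172), and the activator Plat rose by 2.34 ± 0.70 (adjusted p = 0.0353). The membrane proteases Adam28 (3.53 ± 0.36) and Adam8 (2.46 ± 0.73) rose too, and the inhibitor Tfpi2 fell by 2.98 ± 0.60 (adjusted p = 0.00828). Adam8 was highest in iFIPC 3, the sample lowest for Mmp3. Of 11 matrix substrates tested, 5 rose and 0 fell, among them fibronectin (Fn1, 6.17 ± 0.73) and the basement membrane collagens Col18a1 (3.63 ± 0.54) and Col4a1 (2.24 ± 0.34).

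Between induced and native adult-type organoids fewer genes were called. Of 17 genes tested in iISC against crypt, 2 were called, 1 higher and 1 lower, against 3.41% of all 13597 genes tested (2.08% higher, 1.32% lower). Timp2 was 1.73, 1.21 and 1.70 in iISC and 0.46, -0.70 and -0.49 in crypt, a rise of 1.79 ± 0.38 (adjusted p = 0.0298). Mmp14 (chr14:55059969-55060028) was 0.78, 1.13 and 1.87 against 3.25, 3.07 and 2.99, a fall of 1.84 ± 0.45 (adjusted p = 0.0451). For both the samples did not overlap, as for 5 of the 17 genes and 25.6% of all genes. Timp3 read 0.84, -1.61 and 1.19 against -3.10, -1.58 and -1.85 and missed the threshold (2.32 ± 0.72, adjusted p = 0.097). Mmp3, at background in all 6 samples, was not tested. Mmp13 was measured on iISC 3 alone, at -4.59, and on the same array Twist1 (-5.05) and Col3a1 were above background, unlike on the other iISC arrays.

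Both calls were lost when single samples were left out. Timp2 missed the threshold without any 1 of iISC 1 to 3, crypt 2 or crypt 3 (adjusted p of 0.0531 to 0.12), and Mmp14 without any 1 of the 6 samples (0.0542 to 0.137). No slide held both groups, and with slide as a term Timp2 changed by 1.77 (adjusted p = 0.291) and Mmp14 by -1.82 (adjusted p = 0.473). Of the 34 further genes of matrix breakdown, 22 were tested and 0 were called, and of the matrix substrates Nid1 (nidogen, 4.37 ± 0.52) and Thbs1 (thrombospondin, 2.89 ± 0.60) rose.

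**Figure D5:**
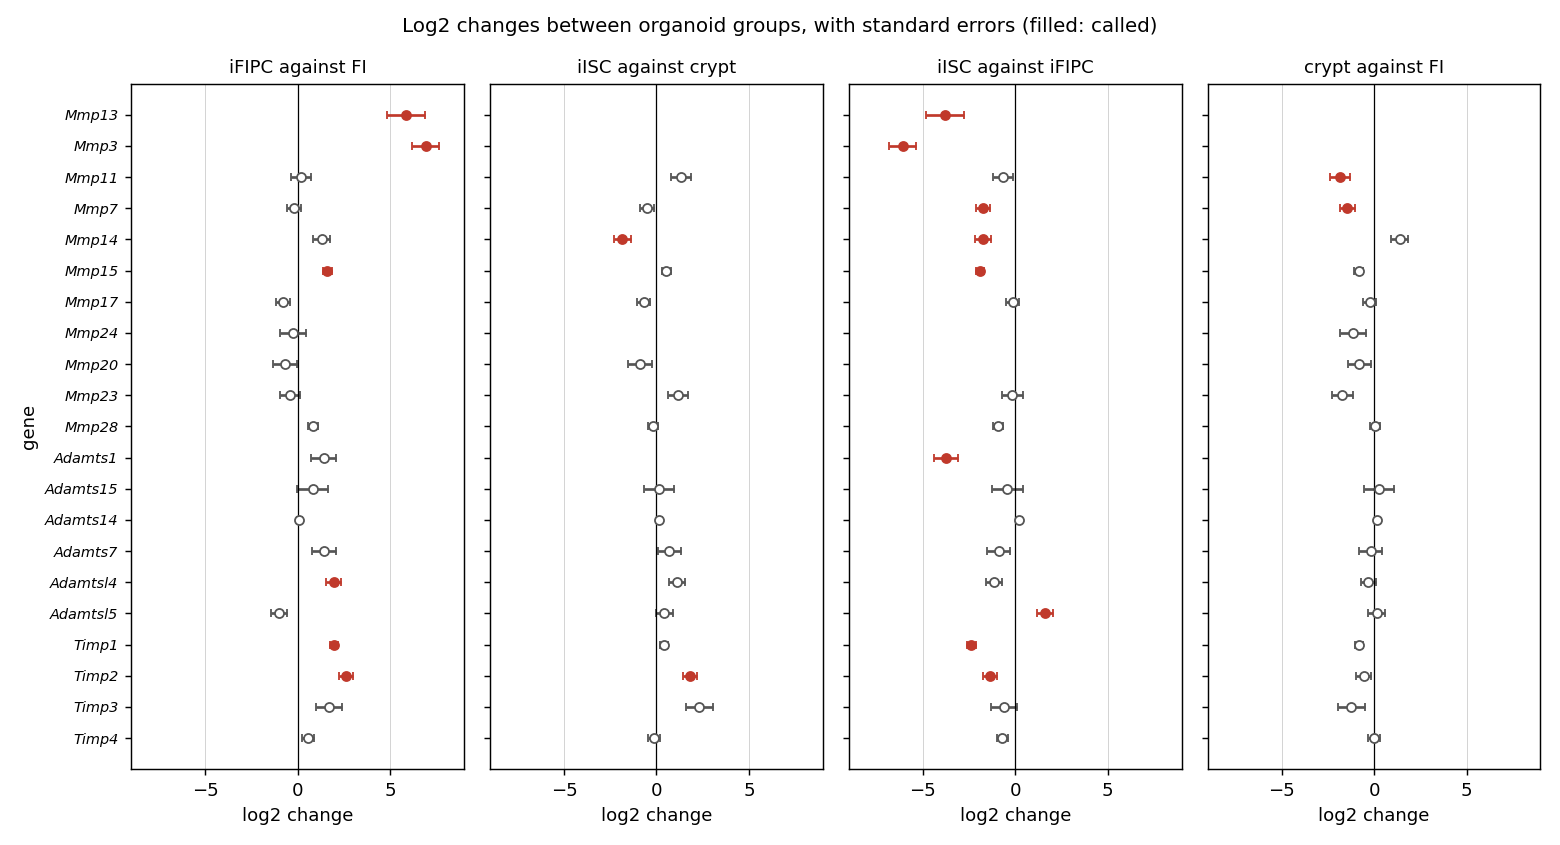
Log2 changes (points) with standard errors (bars) of the genes tested in 4 comparisons between organoid groups, filled where called. All 6 calls of iFIPC against FI lie to the right of 0, and Mmp14 is called in iISC against crypt and in iISC against iFIPC, below 0 in both.

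Between the induced organoids, 9 of 19 genes tested were called in iISC against iFIPC, 1 higher and 8 lower, against 8.05% of all 13771 genes (3.22% higher, 4.83% lower). All 19 were well above background throughout iFIPC, against 15 of the 48 genes throughout iISC, so the filter favours falls and the counts partly reflect it. The median log2 change was -0.94, against 0.05 over all genes, and 11 of the 19 did not overlap, against 38.3% of all genes. These values share the iFIPC samples with the comparison against FI. Mmp3 was at least 14-fold lower in iISC (fitted -6.09 ± 0.73, adjusted p = 0.00119) and Adamts1, a versican-cleaving protease (chr16:85795044-85795103), at least 5.07-fold lower. Adamts1 read -7.20, -7.88 and -7.49 in iISC, all at background, and -4.04, -4.0 and -3.30 in iFIPC (fitted -3.74 ± 0.66, adjusted p = 0.007). Among native organoids Adamts1 was at background in crypt (-7.66, -8.51 and -8.57) and read -7.05, -4.10 and -4.38 in FI, where FI 1 was the exception, so it was not tested between these.

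Timp1 fell by 2.37 ± 0.23 from iFIPC to iISC (-3.17, -2.93 and -3.05; adjusted p = 0.000416), Mmp15 by 1.91 ± 0.23 (adjusted p = 0.00115) and Mmp14 by 1.75 ± 0.45 (adjusted p = 0.0314). Mmp7 fell by 1.74 ± 0.39 (adjusted p = 0.0192), Timp2 by 1.37 ± 0.39 (adjusted p = 0.0427), and Mmp13 changed by -3.82 ± 1.03 (adjusted p = 0.0365), with iISC 3 above iFIPC 3. Adamtsl5, at -0.10, 0.14 and 1.11 in iISC and -2.07, -0.71 and -0.85 in iFIPC, was higher by 1.59 ± 0.44 (adjusted p = 0.0404). Its other probes disagreed, one at 1.72 and another at -0.19. Within the slide that carried all iISC arrays and iFIPC 2, Mmp3 (-7.10, adjusted p = 0.0312) and Timp1 (-2.99, adjusted p = 0.0366) were called together with Mmp2, which was not tested over all samples, and 1.06% of all genes tested within that slide were called. The lone iFIPC sample is there assumed to vary like the iISC samples. Mmp15 (-2.27, adjusted p = 0.106), Adamts1 (-3.52, adjusted p = 0.0572), Mmp14 (-1.79, adjusted p = 0.297), Mmp7 (-1.25, adjusted p = 0.304), Timp2 (-1.62, adjusted p = 0.155), Mmp13 (-4.83, adjusted p = 0.41) and Adamtsl5 (1.09, adjusted p = 0.522) were not. Leaving out 1 sample ended the calls of Mmp13 (iISC 1 or 2, iFIPC 1 or 2), Mmp14 (iISC 1 or 2, iFIPC 2 or 3), Mmp7 (iISC 2 or 3), Adamtsl5 (iISC 2 or 3, iFIPC 1 or 3) and Timp2 (any of the 6). Of 9 fibroblast markers tested, 4 fell and 1 rose, Dcn among the falls (at least 13.7-fold).

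In native organoids, crypt against FI, 2 of 18 genes tested were called, both lower in crypt, against 9.13% of all 14180 genes (5.97% lower). Mmp7 was lower by 1.44 ± 0.39 (adjusted p = 0.0331), and its crypt samples (3.14, 2.66 and 2.65) all lay below the FI samples (4.79, 4.16 and 3.84). Mmp11, stromelysin-3, which furin activates inside the cell (chr10:75386026-75386085), read -3.89, -5.26 and -4.73 in crypt and -2.48, -2.95 and -2.96 in FI (-1.83 ± 0.54, adjusted p = 0.0456). Samples did not overlap for 9 of the 18 genes, against 35.9% of all genes. Timp1 (-0.82) and Mmp15 (-0.83) had adjusted p of 0.0366 and 0.0344 but changed by less than the minimum. Within the slide that carried all FI arrays and crypt 1, Mmp7 differed by -1.12 (adjusted p = 0.367) and Mmp11 by -1.09 (adjusted p = 0.212), with the lone crypt sample assumed to vary like the FI samples. Without crypt 2, crypt 3 or FI 2 neither gene was called, Mmp7 also not without FI 1, and Mmp11 not without FI 1 or FI 3.

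Mmp7 was thus higher in both fetal-type groups than in the adult-type group of the same origin, with no adult-type sample above 3.14 and no fetal-type sample below 3.56. The 2 differences did not differ from each other by the test (-0.29 ± 0.55, adjusted p = 0.764). Of 7 other Paneth cell genes tested, 0 were called in iISC against iFIPC and 0 in crypt against FI, with median log2 changes of 0.23 and 0.13. The order of their samples was not examined, and a missing call does not show that levels were equal.

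The difference between adult-type and fetal-type organoids was then compared between induced and native cells, as (iISC minus iFIPC) minus (crypt minus FI). Of 21 genes tested, 3 were called, all negative, against 5.27% of all 14510 genes (3.26% positive, 2.01% negative). They were Mmp3 (-6.42 ± 1.04, adjusted p = 0.0108), Mmp14 (-3.14 ± 0.64, adjusted p = 0.0224) and Timp1 (-1.55 ± 0.32, adjusted p = 0.0248). For Mmp3 the other 3 groups were at background, so the size depends on how background is handled, and with normexp it was -2.38 (adjusted p = 0.0667). For Mmp14 the 2 differences had opposite signs, -1.75 from iFIPC to iISC and 1.39 ± 0.45 from FI to crypt (adjusted p of the latter 0.0622). Its group means were 3.01 in iFIPC, 1.26 in iISC, 1.71 in FI and 3.10 in crypt. With slide as a term Timp1 was still called (-2.34, adjusted p = 0.0114), and Mmp3 (-7.24, adjusted p = 0.106) and Mmp14 (-3.32, adjusted p = 0.243) were not. Without crypt 2 or crypt 3 only Mmp3 was called, and the Timp1 call was also lost without FI 1 or FI 2.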

How the data were processed

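Total RNA was labelled with Cy3 and hybridised to Agilent one-colour mouse arrays, per the labels' protocols. The deposited files hold the scanner software's processed intensity per spot, with flags for spots well above background, saturated or outlying, and per the file headers they were extracted with Feature Extraction 9.5.1.1 (MEF and iHep) and 10.7.1.1 (organoids). The deposited series matrix holds the authors' normalised signal, whose column medians were all 59.32, as after quantile normalisation. It was used as an alternative only. The submitters' processing notes name version 9.5.1.1 alone.

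Levels are log2 of the processed intensity minus the 75th percentile over gene probes of each array (714.1 to 1484.4), after control spots and outlier spots (62 to 107 per array) were left out. Probes were named through RefSeq by accession (24836), symbol (6051) or synonym (1809), and 8478 were unnamed. Positions are those the organoid files give on mm9. The probe with the highest mean signal stood for a gene. Where a called gene had another measurable probe, it agreed in sign in 92 of 93 cases.

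Differences were tested with limma 3.58.1 in R 4.3.3 (lmFit and eBayes), in one fit of 17 samples for the 5 comparisons with MEFs and one of the 12 organoid arrays for the others, with Benjamini-Hochberg adjustment over all genes tested. Genes were called at an adjusted p below 0.05 where the log2 change was 1 or more in size. A fold written as "at least" sets the bright group's mean against the lowest signal measurable on the dim group's arrays, or the probe's own signal if higher. On simulated data, iFIPC against MEF recovered 75 of 100 genes changed by 2 log2 units and 93 of 100 changed by 4, with 9 false calls, and iFIPC against FI 81 and 93, with 6 false calls. There only 200 genes changed, all others had a common mean in every group, and the background floor was not modelled. In the real data far more genes were called, so these rates may not hold there. The number of arrays limits the precision.

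The genes and gene lists were chosen with earlier results of these data known. Values are given for genes well above background on all arrays of at least 1 group, in full for those called most often or with the largest change of their role, for up to 6 genes of each further list, and for markers that a result turns on. Genes outside that rule were singled out after their values were seen. The alternatives were another background correction, quantile normalisation, the authors' matrix, no filter on dim probes, the mean of all probes, no minimum change, other sample sets, slide as a term or a subset, the replicate number as a block, and each sample left out. The gene names of the older annotation were tried after seeing the data. One gene of a further list is not reported here.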

Additional observations from a re-analysis of the deposited data

Results flagged for a closer look

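In 3 genes the difference between adult-type and fetal-type organoids was not the same for induced and for native cells, by the test of that difference over the 12 organoid samples (limma, adjusted over all genes tested). The value for Mmp3 was -6.42 ± 1.04 (log2, SE; adjusted p = 0.0108). Mmp3 was measured in 3 iFIPC samples and at background in the other 9 organoid samples, so this size is no measured fold: iFIPC was at least 26.0-fold above FI and at least 14-fold above iISC, and with normexp the value was -2.38 (adjusted p = 0.0667). The value for Mmp14 was -3.14 ± 0.64 (adjusted p = 0.0224), with a mean level of 3.01 in iFIPC and 1.26 in iISC against 1.71 in FI and 3.10 in crypt. The value for Timp1 was -1.55 ± 0.32 (adjusted p = 0.0248), with -0.68 in iFIPC and -3.05 in iISC against -2.65 in FI and -3.47 in crypt. No slide carried all 4 groups, and with slide as a term Mmp3 (adjusted p = 0.106) and Mmp14 (adjusted p = 0.243) were not called. Without crypt 2 or crypt 3 Mmp14 and Timp1 were not called, and Timp1 also not without FI 1 or FI 2.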

How the results depend on the processing

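Of 170 calls of a gene in a comparison, 118 were also called under every alternative run for them. Over 2663 pairs of a call and an alternative, 2484 were called, 179 were not and 0 turned direction. Slide as a term gave 0 genes called for iISC against crypt (1 of 17 at an unadjusted p under 0.05), 2 for iFIPC against FI, 3 for iISC against iFIPC, 0 for crypt against FI (2 of 18 unadjusted) and 1 for the difference between induced and native cells. Within shared slides 11 were called for iHep against MEF, 3 for iISC against iFIPC and 0 for crypt against FI (7 of 19 unadjusted). Fits of only the 2 groups gave 1 for iISC against crypt and 5 for iISC against iFIPC, where 2.5% and 4.65% of all genes were called. Without a filter on dim probes 1 was called for iISC against crypt (1.8% of all genes) and 1 for crypt against FI (5.91%). For the latter it was also 1 with normexp (5.99%), 1 with quantile normalisation (8.39%), 1 in the authors' matrix (8.4%) and 4 with no minimum change (16.3%). Leaving out 1 sample gave 17 to 23 for iHep, 29 to 34 for iFIPC, 29 to 32 for iISC, 32 to 34 for FI and 31 to 34 for crypt against MEF, 0 to 2 for iISC against crypt, 6 to 9 for iFIPC against FI, 4 to 9 for iISC against iFIPC, 0 to 4 for crypt against FI and 1 to 4 for the difference between induced and native cells. The cause of these changes was not tested. Replicate numbers did not pair the samples, and with the replicate number as a block 2, 7, 7, 2 and 3 genes were called in the 5 organoid comparisons, in the order above. The shares over all genes there were 2.74, 9.91, 6.8, 8.35 and 3.7%. For crypt against FI the genes called with the block were Mmp11 and Mmp14, with Mmp7 lost (adjusted p = 0.0511). With that block and all 18 arrays it was 26, 32, 31, 32 and 32 for iHep, iFIPC, iISC, FI and crypt against MEF, where 29.4, 44.2, 49.3, 48.2 and 51.0% of all genes were called. Over all genes, slide as a term left 36 (0.265%) called for iISC against crypt, 124 (0.863%) for iFIPC against FI, 301 (2.19%) for iISC against iFIPC, 324 (2.28%) for crypt against FI and 69 (0.476%) for the difference. Normexp was run with an offset of 50 added to every signal, which shrinks the log2 changes of dim genes. With it Adamts1 was -0.90 in iISC against iFIPC and Mmp3 -2.38 (adjusted p = 0.0667) in the difference between induced and native cells. Calls of dim genes lost with normexp depend partly on that offset. For genes near background, array sensitivity sets the smallest change that could be seen.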
